A study of Apis mellifera with 25 samples.

Results

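In honey bee workers (Apis mellifera) from 4 sets of crosses, 356 genes met a rule for a difference with ovary status in the bees of crosses 888 and 882 and for little difference in those of crosses 875 and 894. A gene was a member when its mean over all libraries was at least 5 counts per 1000000 counts of the library (CPM), when the active and inactive means of log2(CPM + 1) differed by at least 1, with the same sign, in both 888 and 882, and when they differed by less than 0.3 in both 875 and 894. Of 15314 gene identifiers, 9429 had a mean of at least 5 CPM. Among these, 340 members were higher and 16 were lower in bees with active ovaries, and they are called rising and falling members after crosses 888 and 882. A further 2 genes met the thresholds and were left out because their CPM ranged 100-fold or more within 1 ovary status. The members were selected on these values, so the differences that selected them are given as a description, with no test.

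Each of the 25 libraries held RNA from 1 bee. Africanized and European honey bees had been crossed in both directions to give the workers, which lived in colonies that had lost their queen. Dissection divided them into bees with active ovaries (12 libraries) and with inactive ovaries (13 libraries). Polyadenylated RNA came from the abdomen after the gut was taken out, with the fat body and ovaries still in place. A cross here is the number that opens a library's title. There were 3 bees of each status in crosses 888, 875 and 894, and 3 active and 4 inactive bees in cross 882. The labels do not say which lineage was the mother's in each numbered cross, or how the bees of a cross are related. No treatment separated the bees of one status from the other besides the sorting. Nothing in the labels sets crosses 888 and 882 apart from 875 and 894 other than their numbers.

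Workers normally stay sterile in the presence of a queen and her brood. When the queen is lost, some workers activate their ovaries: oocytes grow in the ovarioles, take up the yolk protein vitellogenin made by the fat body, and can be laid as unfertilised eggs that become drones. The abdomen without gut therefore mixes germline, ovary sheath and nurse cells with fat body, cuticle and muscle, and active ovaries contribute more tissue than inactive ones. In such bulk samples, fewer cells of a type and less RNA per cell cannot be told apart.

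The gene identifiers of the files are not paired with names, and 0 of them matched the 12398 genes of the reference table of the assembly Amel_HAv3.1. Members are therefore given by identifier, with no function or cell type, and marker genes of ovary or fat body could not be looked up to check the tissue. Total counts ran from 7.54 M to 37.7 M per library (M, 1e6 counts). There were 3 inactive libraries that stood apart in the allele counts described further on. Genes judged had 30 or more reads there and a D share of 0.3 to 0.7 in 2 or more libraries of the cross. A D share of 0.05 or less was found for 15 genes in 882 inactive replicate 3 and 18 in 888 inactive replicate 2. In 888 inactive replicate 1 it was found for 6, against 0 to 4 in the other 22 libraries. The highest of these, 4, was in 888 inactive replicate 3, close to the 6. A Q share of 0.05 or less was found for 3 to 26 genes per library. Results are given with and without these 3 libraries where they bear on them. Replicates are numbered in the order of deposit, and the number serves as a name.

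The rising members were a large block of moderately expressed genes, and the falling members a small block of abundant ones. In cross 888, the median active minus inactive difference of the 340 rising members was 1.69 on the log2(CPM + 1) scale, 3.24-fold, with a range of 1.0 to 4.14. In cross 882 the median was 1.18, 2.27-fold, with a range of 1.0 to 2.76. The difference was at least 4-fold for 81 rising members in cross 888 and for 12 in cross 882. The same genes had a median difference of 0.11 in cross 875 and 0.14 in cross 894. The 16 falling members had a median difference of -1.35 in cross 888 and -1.35 in cross 882, against -0.01 in cross 875 and -0.01 in cross 894.

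**Figure D1:**
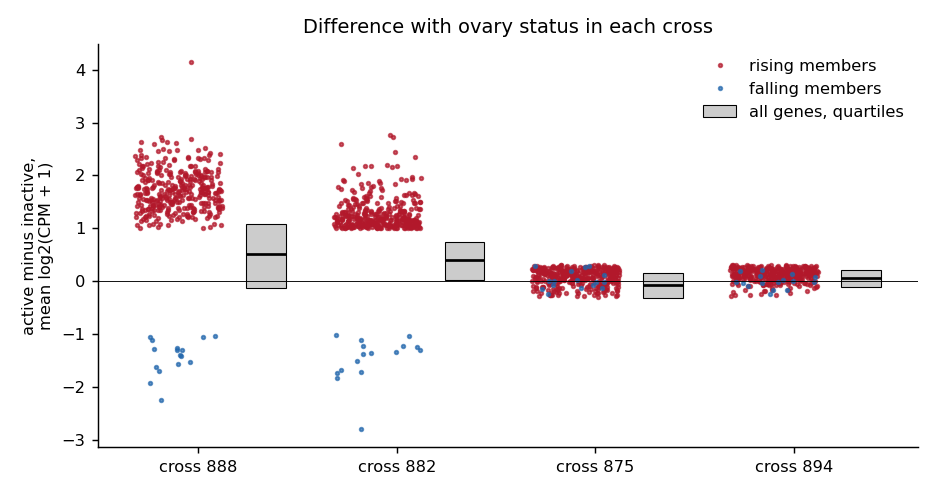
Active minus inactive difference of mean log2(CPM + 1) for each of the 340 rising (red) and 16 falling (blue) members in each cross, left of a box with the quartiles and median of all 9429 genes of at least 5 CPM. The gaps between 0.3 and 1 are set by the rule. The rest of the transcriptome was also shifted upwards in crosses 888 and 882, with medians of 0.51 and 0.39.

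The members stood on a shift shared by most genes. Over all 9429 genes of at least 5 CPM the median difference was 0.51 in cross 888, 0.39 in cross 882, -0.06 in cross 875 and 0.05 in cross 894. The rising members exceeded this median by 1.19 in cross 888 and by 0.79 in cross 882. With library sizes scaled by TMM (trimmed mean of M-values, which sets a typical gene to no change), the medians of all genes moved to 0.10 in cross 888 and -0.01 in cross 882. Under that scaling the rising members had medians of 1.29 in cross 888, 0.78 in cross 882, 0.14 in cross 875 and 0.09 in cross 894. All 340 stayed above 0 in both 888 and 882, and 261 of them in cross 888 and 84 in cross 882 still reached a difference of 1. All 16 falling members stayed at or below -1 in both, with medians of -1.78 in cross 888 and -1.76 in cross 882. The rule applied to TMM-scaled values chose 133 genes, of which 80 were also members under library totals.

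The values just inside and just outside the thresholds show how narrowly they divide the genes. GB49264 was a member with differences of 1.21 in cross 888, 1.0003 in 882, -0.07 in 875 and 0.02 in 894. GB47226 was a member with 2.05 in 888, 1.53 in 882, 0.25 in 875 and 0.2994 in 894. GB56036 was no member with 1.12 in 888 and 0.9999 in 882, and GB42666 was none with 2.32 in 888, 1.37 in 882 and 0.3002 in 894.

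Among the rising members, 144 had a mean under 20 CPM and 34 had at least 100 CPM. Their median was 22.8 CPM, against 26.0 CPM for all genes of at least 5 CPM, of which 15.97% reached 100 CPM. The falling members had a median of 217 CPM, and 11 of the 16 reached 100 CPM. CPM is a count per library and is not divided by gene length, so these levels describe read depth and not transcripts per cell.

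Counts of the separation between bees follow from the rule and are read only beside the same count for all genes. All 3 active bees exceeded all 3 inactive bees in cross 888 for 322 of the 340 rising members, where 40.9% of all genes of at least 5 CPM did so. In cross 882 all 3 active bees exceeded all 4 inactive bees for 311 rising members, against 26.9% of all genes. In cross 875 that held for 1 rising member (1.29% of all genes) and in cross 894 for 0 (1.32% of all genes). All active bees lay below all inactive bees for 7 of the 16 falling members in cross 888, where 7.34% of all genes did so, and for 6 of 16 in cross 882, where 2.3% did so.

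Averaged over the rising members, the bees of cross 888 with active ovaries had mean log2(CPM + 1) levels of 5.66, 6.003 and 5.87, against 3.76, 4.03 and 4.56 in those with inactive ovaries. In cross 882 the levels were 5.30, 5.09 and 4.90 in active bees, against 3.77, 3.89, 4.05 and 3.53 in inactive bees. The statuses did not overlap in either cross, as the rule would lead them to. In cross 875 the active bees had 5.05, 4.70 and 4.85 and the inactive bees 4.24, 4.66 and 5.46. In cross 894 the active bees had 4.67, 4.17 and 4.28 and the inactive bees 4.55, 4.02 and 4.18. The statuses overlapped in both of these crosses, and the bees of cross 894 all stood below the active bees of crosses 888 and 882.

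**Figure D2:**
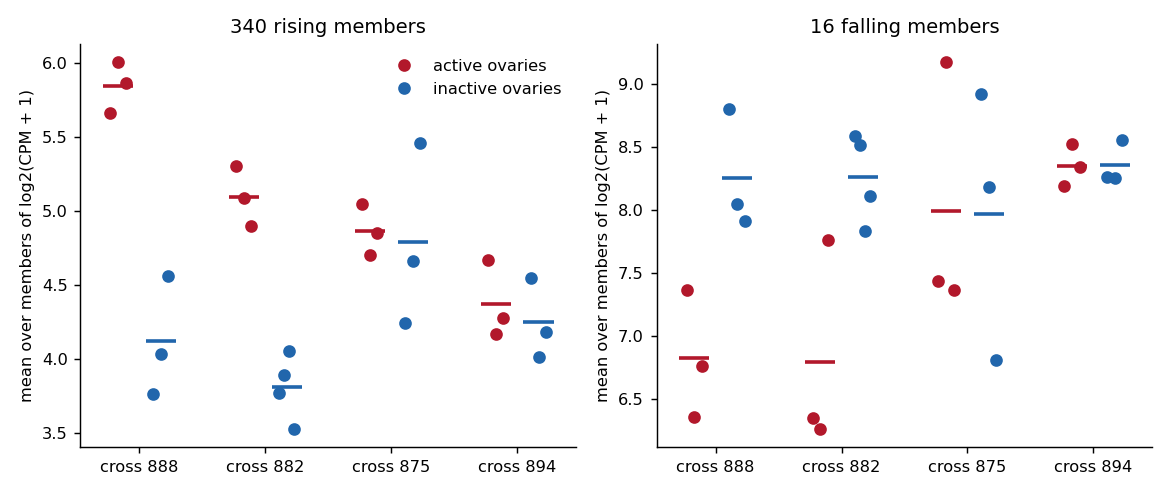
Mean log2(CPM + 1) over the 340 rising members (left) and the 16 falling members (right) in each of the 25 bees. Points are bees with active (red) or inactive (blue) ovaries and bars are group means. In cross 875, inactive replicate 3 had the highest rising mean, 5.46, and the lowest falling mean, 6.81, of the 6 bees.

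The small average difference in cross 875 rested on bees that were far apart. Each bee was placed for each gene on a line from 0, the inactive mean of crosses 882 and 888, to 1, their active mean, and the median over the rising members was taken. The active bees of cross 875 stood at 0.64, 0.62 and 0.58, and its inactive bees at 0.15, 0.47 and 1.01. The active bees of cross 894 stood at 0.47, 0.13 and 0.19 and its inactive bees at 0.39, 0.04 and 0.13. Thus, over the members, the library labelled 875 inactive replicate 3 stood at the active level of crosses 888 and 882. The other 2 inactive bees of its cross stood below all 3 active ones. The rule used the values of these bees, so their places follow in part from the selection. The bees of cross 894 all stood in the lower part of the line whatever their status.

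Without the library labelled 875 inactive replicate 3, the median difference of the rising members in cross 875 was 0.44 and only 93 of the 340 stayed under 0.3. Over all 9429 genes of at least 5 CPM, leaving this library out moved the median in cross 875 only from -0.06 to 0.05. The falling members then had a median of -0.55 in cross 875, with 4 of 16 within 0.3 of 0. The falling members also depended on 875 active replicate 2, which had the highest falling mean of the 25 bees, 9.18, and without which their median in cross 875 was -0.68. On the same line from 0 to 1, the median over the falling members was 0.96, -0.59 and 0.45 in the active bees of cross 875 and -0.40, 0.01 and 0.93 in its inactive bees. The rule applied without 875 inactive replicate 3 chose 137 genes, 97 of them members. The remaining members were not chosen without 875 inactive replicate 3. In cross 894 the rising members had medians of -0.03 to 0.29 when each bee was left out in turn. Without 894 inactive replicate 1 the rule chose 191 genes.

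Without the 3 libraries that stood apart, the rising members had a median difference of 1.34 in cross 888, where 1 inactive bee was left, and of 1.28 in cross 882. Of the 340, 244 in cross 888 and 328 in cross 882 still reached 1. The falling members then had medians of -0.91 in cross 888 and -1.54 in cross 882.

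**Figure D3:**
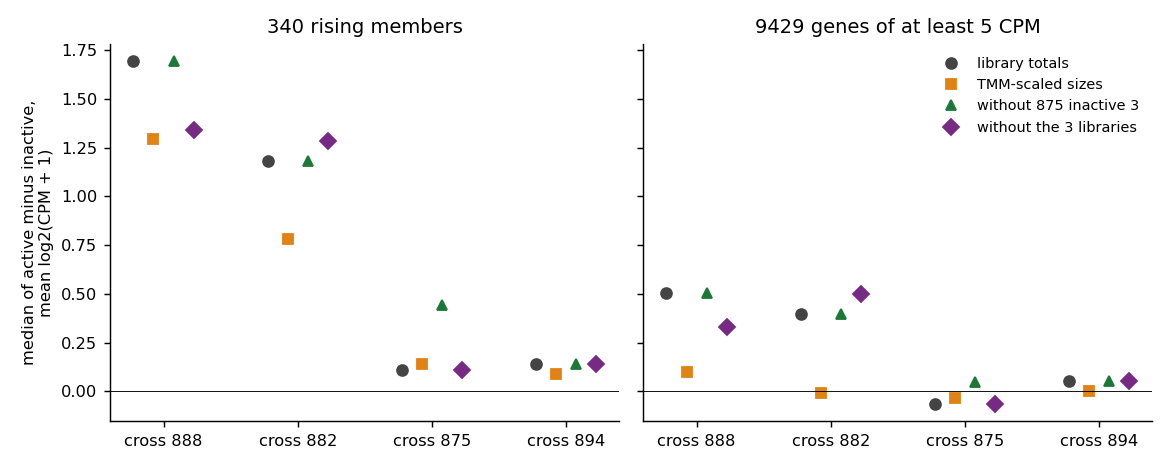
Median active minus inactive difference in each cross over the 340 rising members (left) and over all 9429 genes of at least 5 CPM (right), from library totals, from TMM-scaled sizes, without 875 inactive replicate 3, and without the 3 libraries that stood apart. TMM lowered the rising medians in crosses 888 and 882 by about as much as the medians of all genes, and leaving out 875 inactive replicate 3 raised the rising median in cross 875 to 0.44.

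The member with the strongest joint rise in both crosses was GB49836, ranked by the smaller of its 2 differences. It had 60.4, 109.9 and 78.9 CPM in active bees of cross 888, against 4.55, 14.5 and 22.9 CPM in inactive bees. In cross 882 it had 46.1, 29.1 and 24.6 CPM in active bees, against 5.35, 3.68, 7.54 and 4.27 CPM in inactive bees. Every active bee lay above every inactive bee in both crosses, with differences of 2.68 in cross 888 and 2.45 in cross 882. In cross 875 it averaged 25.3 ± 17.03 CPM in active bees and 25.3 ± 18.2 CPM in inactive bees (SD, n = 3 each), where 1 bee of each status had over 40 CPM. In cross 894 it averaged 12.3 ± 7.88 CPM in active bees and 10.5 ± 4.76 CPM in inactive bees (SD, n = 3 each).

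The next was GB45395, whose positions in the allele tables lie on scaffold Group6.37 between bases 146025 and 146796. It had 109.0, 112.5 and 87.8 CPM in active bees of cross 888, against 9.24, 11.6 and 38.7 CPM in inactive bees. In cross 882 it had 42.2, 50.2 and 43.7 CPM in active bees, against 8.51, 12.5, 10.8 and 3.55 CPM in inactive bees. The statuses did not overlap in either cross. In cross 875 the active bees spanned the whole scale with 133.3, 3.4 and 32.7 CPM, against 36.2, 26.3 and 23.4 CPM in inactive bees. Its near-zero difference there, -0.10, was the mean of very unlike bees.

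The largest single difference in cross 888 belonged to GB40567, singled out after its values were seen, at Group8.6 between bases 1877026 and 1887578. It had 201.0, 205.5 and 312.6 CPM in active bees of cross 888, against 6.51, 21.96 and 12.9 CPM in inactive bees. In cross 882 its rise rested mostly on 1 bee, with 147.4, 18.9 and 24.4 CPM in active bees, against 14.89, 14.92, 14.95 and 16.8 CPM in inactive bees.

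Of the falling members, GB54486 (Group6.10, base 373307) had the strongest joint fall. It had 192.4, 32.4 and 48.4 CPM in active bees of cross 888, against 729.3, 299.3 and 157.0 CPM in inactive bees. In cross 882 it had 32.5, 63.7 and 248.2 CPM in active bees, against 708.7, 371.6, 606.6 and 622.5 CPM in inactive bees. The statuses overlapped in cross 888 and did not in cross 882. In cross 875 it had 67.7 CPM in 1 active bee and 786.1 and 582.2 CPM in the others, and among inactive bees 105.2 CPM in the library labelled replicate 3, against 507.2 and 569.9 CPM in the others. In cross 894 it averaged 494.4 ± 129.4 CPM in active bees and 435.6 ± 122.8 CPM in inactive bees (SD, n = 3 each).

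GB49581 (Group4.6, bases 413995 to 414918) was the next falling member and was weakly expressed. It averaged 2.92 ± 1.98 CPM in active and 12.9 ± 8.51 CPM in inactive bees of cross 888 (SD, n = 3 each). In cross 882 it averaged 1.69 ± 1.35 CPM in active bees (SD, n = 3) and 7.61 ± 3.19 CPM in inactive bees (SD, n = 4). In cross 875 the bees were far apart, with 1.91, 9.99 and 1.12 CPM in active bees and 15.6, 0.99 and 1.71 CPM in inactive bees. In cross 894 it averaged 11.5 ± 4.94 CPM in active and 13.5 ± 4.65 CPM in inactive bees (SD, n = 3 each).

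Taken as a share of all gene counts, the rising members made up 3.42% ± 0.497 in active and 1.05% ± 0.374 in inactive bees of cross 888 (SD, n = 3 each). In cross 882 they made up 2.003% ± 0.358 in active bees (SD, n = 3) and 0.793% ± 0.104 in inactive bees (SD, n = 4). The 16 falling members had the larger share where ovaries were inactive. They made up 2.01% ± 0.931 in active and 5.92% ± 2.71 in inactive bees of cross 888 (SD, n = 3 each), and 2.08% ± 1.33 in active (SD, n = 3) and 4.92% ± 2.30 in inactive bees of cross 882 (SD, n = 4). In cross 875 they made up 3.30% ± 3.29 in active and 3.18% ± 2.27 in inactive bees, and in cross 894 5.56% ± 0.195 in active and 5.72% ± 0.751 in inactive bees (SD, n = 3 each).

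Most of the falling share came from GB50121 and GB50115, named after their values were seen. GB50121 had 15650, 5068 and 14020 CPM in active bees of cross 888, against 43470, 41900 and 15600 CPM in inactive bees. GB50115 had 8604, 2746 and 7704 CPM in the same active bees, against 25010, 25160 and 8406 CPM in the inactive ones. Their values moved together from bee to bee, and in both genes 1 active bee lay just above the lowest inactive bee. The overlap was wider in cross 882. GB50121 had 5159 to 20070 CPM in active bees there, against 11960 to 46680 CPM in inactive bees. GB50115 had 2960 to 11190 CPM in active bees of cross 882, against 7187 to 27380 CPM in inactive bees. In cross 894 GB50121 averaged 30810 ± 1640 CPM in active and 31760 ± 5182 CPM in inactive bees (SD, n = 3 each), against 33660 ± 15650 CPM in the inactive bees of cross 888 (SD, n = 3).

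The share of counts taken by the 10 most abundant genes of a library moved with the members in the group means of crosses 888 and 882. Members were not taken out of these 10 genes, and where members were among them this is built in. GB50121 and GB50115 together averaged 1.79% ± 0.885 in active and 5.32% ± 2.53 in inactive bees of cross 888 (SD, n = 3 each). The share of the 10 genes averaged 13.6% ± 1.56 in active and 26.2% ± 5.17 in inactive bees of cross 888 (SD, n = 3 each). In cross 882 it averaged 19.0% ± 1.37 in active (SD, n = 3) and 26.6% ± 8.47 in inactive bees (SD, n = 4). The statuses overlapped there, and the share was 16.4% in 882 inactive replicate 3, below the 17.8% to 20.5% of the active bees. In cross 875 it averaged 16.8% ± 2.24 in active and 14.2% ± 7.27 in inactive bees, and in cross 894 25.8% ± 1.67 in active and 25.9% ± 5.61 in inactive bees (SD, n = 3 each). Its lowest value over all 25 libraries was 8.18%, in the library labelled 875 inactive replicate 3. The part of this share in the members' differences was not tested beyond the TMM scaling above.

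The members also varied together between bees of the same cross and status. After the mean of each group of cross and status was taken off, the median pairwise Pearson r over the 25 bees was 0.45 among rising members and 0.51 among falling members, and -0.32 between a rising and a falling member. Over all pairs of genes of at least 5 CPM the median was 0.17. In the 12 bees of crosses 875 and 894, whose statuses the members hardly separated, the medians were 0.51 among rising, 0.61 among falling and -0.33 between rising and falling members, against 0.14 over all genes. These are descriptions over genes that share libraries, depth and the same count totals. They also carry the selection: most members met the limit of 0.3 in cross 875 only with inactive replicate 3 included, so a shared deviation of that bee, in these r values and in the SD of cross 875, follows in part from the rule. The median SD within groups was 0.46 log2 units for rising members and 0.46 for all genes, against 0.89 for falling members. It was highest for rising members among the inactive bees of cross 875, at 0.70.

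The rule set limits on the difference between statuses and not on the mean level of a cross, which was tested next. Each cross mean weighted its bees equally, so in cross 882, with 4 inactive bees of 7, the mean also carries part of the difference that the rule selected on. The comparisons with cross 882 are therefore not free of the selection, and values with the statuses weighted equally are given beside them. edgeR's quasi-likelihood test was run on 13991 genes. The p-values compare the bees of these 4 crosses and not a factor shared by a pair of them.

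No single member was called different in level between crosses 882 and 888 and crosses 875 and 894 by edgeR with bees weighted equally. The members as a set were not tested. Of the 356 members, 0 passed for crosses 882 and 888 over 875 and 894 by edgeR, where 7 of 13991 genes (0.05%) did. An unadjusted p under 0.05 by edgeR was found for 33 of 340 rising and 7 of 16 falling members. Over all genes it was found for 1083 of 13991. With the statuses weighted equally, edgeR called 1 member (0.281%) higher and 0 lower, against 0.0715% of all genes higher. Limma-voom called 0 members, where it called 5 of all genes higher and 1 lower. DESeq2 called 2 members (0.562%) higher and 1 (0.281%) lower, against 0.472% and 0.243% of all genes. The rising members had a median log2 difference of 0.13, with 270 above 0 and a range of -0.95 to 1.32. The falling members had a median of -0.65, and all 16 were below 0, where the median of all genes was 0.00. The member nearest to a call was GB49239 (Group7.12, bases 142878 to 144239). It averaged 35.0 ± 25.9 CPM in cross 888 (SD, n = 6) and 20.5 ± 12.1 CPM in cross 882 (SD, n = 7), against 10.5 ± 3.78 CPM in cross 875 and 11.95 ± 2.52 CPM in cross 894 (SD, n = 6 each). Its log2 difference was 1.08 (SE 0.22, edgeR adjusted p = 0.0512). The adjusted p of GB49239 ran from 0.000358 to 0.196 over the alternatives. Nearest to a call downwards was GB51888 (Group3.3, base 374082), with 6.13 ± 3.45 CPM in cross 888 (SD, n = 6) and 3.11 ± 2.54 CPM in cross 882 (SD, n = 7), against 7.90 ± 3.75 CPM in cross 875 and 6.85 ± 2.98 CPM in cross 894 (SD, n = 6 each). Its log2 difference was -0.95 (SE 0.22, edgeR adjusted p = 0.0915), with adjusted p from 0.00739 to 0.301 over the alternatives.

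Rising members tended to be higher in cross 888 than in cross 882 when bees were weighted equally. By edgeR, 41 of 340 rising members (12.1%) were called higher in cross 888, against 3.19% of all genes, and 0 were called lower. At an unadjusted p under 0.05 by edgeR, 3 rising members were lower, against 1344 of 13991 genes. DESeq2 called 77 rising members higher (22.6%), against 5.32% of all genes, and limma-voom called 23 (6.76%), against 1.67%, and both called 0 members lower. The median log2 difference of the rising members was 0.47, with 323 above 0, against 0.01 for all genes. Their mean log2(CPM + 1) was 5.84 in active bees of cross 888 and 5.10 in those of cross 882. In inactive bees it was 4.12 in cross 888 and 3.81 in cross 882. The part of the selected differences in these calls was not tested. None of the 16 falling members (0) was called by edgeR, with a median of -0.32. An unadjusted p under 0.05 by edgeR was found for 0 of them, against 2819 of 13991 genes. With active and inactive bees given equal weight, 14 rising members (4.12%) were called higher, against 1.81% of all genes. When the 3 libraries that stood apart were also left out, 8 rising members (2.35%) were called higher, against 1.76% of all genes, so most of the excess over the background was gone. Without the 3 libraries and with bees weighted equally, 153 rising members (45.0%) were called, against 7.44% of all genes, in a fit where cross 888 had 3 active bees and 1 inactive bee.

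The rising member with the largest difference here was GB45771 (Group6.2, bases 182688 to 183157). It averaged 25.5 ± 16.7 CPM in cross 888 (SD, n = 6) and 10.04 ± 12.4 CPM in cross 882 (SD, n = 7). Its log2 difference was 1.71 (SE 0.43, edgeR adjusted p = 0.023), and its adjusted p over the alternatives ran from 0.00189 to 0.12. GB49836, the strongest joint riser, averaged 48.5 ± 41.4 CPM in cross 888 (SD, n = 6) and 17.2 ± 16.4 CPM in cross 882 (SD, n = 7). Its log2 difference was 1.35 (SE 0.35, edgeR adjusted p = 0.0264), with adjusted p from 0.00226 to 0.189 over the alternatives. Both calls were lost with equal weights of the statuses.

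Crosses 875 and 894 were compared in the same way. By edgeR, 12 of 340 rising members (3.53%) were called higher in cross 875 than in cross 894, close to the 2.49% of all genes. None (0) was called lower. At an unadjusted p under 0.05 by edgeR, 2 rising members were lower, against 1509 of 13991 genes. DESeq2 called 24 rising members higher (7.06%), against 4.85% of all genes, and 0 members lower. Limma-voom called 10 higher (2.94%), against 1.82% of all genes. It called 1 member lower (0.281%), against 3.65% of all genes. The median log2 difference of the rising members was 0.35, with 284 above 0, against 0.01 for all genes. The falling members had a median of -0.31, and 0 of 16 were called by edgeR. An unadjusted p under 0.05 by edgeR was found for 2 of the 16, against 3050 of 13991 genes. GB47159 averaged 19.7 ± 12.4 CPM in cross 875 and 7.42 ± 2.30 CPM in cross 894 (SD, n = 6 each), a log2 difference of 1.07 (SE 0.27, edgeR adjusted p = 0.0215). Its adjusted p over the alternatives ran from 0.00367 to 0.0557, and the call was lost without 894 inactive replicate 2 (1.04) or 894 active replicate 2 (1.01). GB51014 (Group10.26, base 116395) averaged 46.7 ± 22.8 CPM in cross 875 and 19.4 ± 7.67 CPM in cross 894 (SD, n = 6 each), a log2 difference of 0.95 (SE 0.28, edgeR adjusted p = 0.0454). This call was lost without any 1 of 13 of the 25 bees, with adjusted p from 0.018 to 0.115 over the alternatives. Of the 41 members called between 888 and 882 and the 12 called between 875 and 894, 4 were in both lists. They made up 33.3% of the shorter list, where 12.1% of the 340 rising members were called between 888 and 882. They made up 9.76% of the longer list, where 3.53% of the rising members were called between 875 and 894. The overlap over all genes was not counted, so no excess is read from it.

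**Figure D4:**
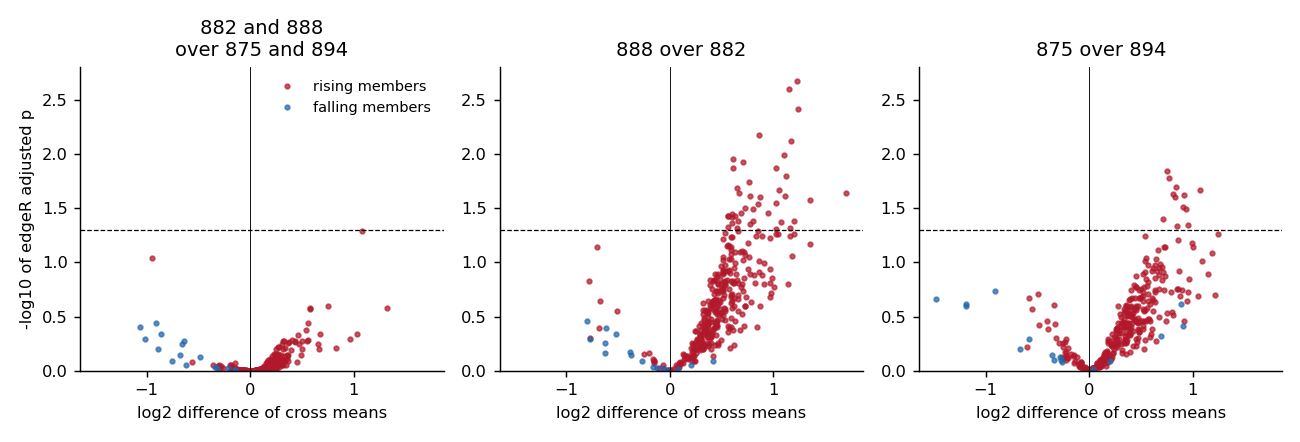
Log2 difference of cross means (x axis) against minus log10 of the edgeR adjusted p (y axis) for the 340 rising (red) and 16 falling (blue) members in the 3 comparisons of level. The dashed line marks an adjusted p of 0.05. No member passes it in the left panel, 41 rising members pass it in the middle panel and 12 in the right panel.

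The deposited allele tables count reads at single-nucleotide positions for a D and a Q version. Here D is taken to mean the drone, the father, and Q the queen, the mother, although no label or header spells the letters out. The tables placed 126 members, 118 rising and 8 falling, on 81 scaffolds, among 366 scaffolds with a gene of at least 5 CPM. The scaffold with the most members was Group11.18, with 7 among 141 placed genes, followed by Group5.14 with 5 among 79. Unplaced scaffolds held 3.17% of the members with a position and 4.83% of all such genes. Within 10000 bases of each other lay 3 pairs of members, all of 2 rising genes. One pair, GB40714 and GB40865 on Group1.10, had overlapping spans, and 9 members shared a position with another gene, so that their reads may be split or counted more than once. GB55095 and GB55076 had nearly the same count in every library, with sums of 13272 and 13266, and are uncertain as separate members.

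Parental counts, a ratio within each bee that the rule did not use, had enough reads for 24 members, 23 rising and 1 falling. One rising member of the 24, GB46091, had 0 reads in the 4 inactive bees of cross 882 and so gave no usable estimate, which leaves 23. The allele tables shared 50214 positions in genes, and between 35.3% and 44.4% of the positions judged in a cross separated the parents by the criterion in the methods. The test took the mean log2 ratio of D to Q counts over the 8 groups of cross and status. The D allele was higher in 14 of the 24 members and the Q allele in 0, by edgeR at an adjusted p under 0.05. The Q allele was higher in 0 members also at an unadjusted p under 0.05 by edgeR, against 111 of 1190 genes. By limma it was higher in 1 member (4.17%), against 9.08% of all genes. Over all 1190 genes tested, 45.0% were called higher for D and 104 genes for Q. The median log2 ratio of the rising members was 0.54, against 0.32 for all genes. With every position counted, 29.4% of 85 members tested were called higher for D, against 31.2% of all genes. With the D and Q totals of each bee set equal, an alternative chosen after the values were seen, 7 members (29.2%) were called higher for D and 3 (12.5%) for Q, against 25.5% and 21.1% of all genes tested.

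The largest ratio among members with at least 500 reads belonged to GB40567, with 4 separating positions in each cross. D reads made up 67.1% ± 24.7 in active bees (SD, n = 12) and 74.0% ± 25.1 in inactive bees (SD, n = 13), and were above 50% in 21 of 25 libraries. By cross, the D share was 75.6% with active and 93.9% with inactive ovaries in cross 888, and 86.2% with active and 91.6% with inactive ovaries in cross 882. It was 84.4% with active and 57.9% with inactive ovaries in cross 875, and 58.4% with active and 48.4% with inactive ovaries in cross 894. The log2 ratio was 1.76 (SE 0.48, edgeR adjusted p = 0.00406), from 3149 reads, with adjusted p from 0.00106 to 0.051 over the alternatives. Without the 3 libraries that stood apart the ratio was 1.48 and the call was lost, with an edgeR adjusted p of 0.051.

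GB51278 (Group16.4, bases 1417236 to 1419527) had the next largest ratio, 1.10 (SE 0.20, edgeR adjusted p = 0.00013), from 825 reads. This ratio rested on cross 894, where a single position gave a D share of 96.6% with active and 94.3% with inactive ovaries. Its D share was 52.8% with active and 50% with inactive ovaries in cross 888, 51.1% with active and 47.9% with inactive ovaries in cross 882, and 56.7% with active and 54.6% with inactive ovaries in cross 875. The call was lost without any 1 of 3 bees of cross 894. The ratio was 0.23 without 894 active replicate 2, 0.23 without 894 inactive replicate 1 and 0.28 without 894 inactive replicate 3. The inactive bees of cross 888 gave 0, 0 and 12 reads, the 12 from replicate 3. Without that bee the group had no reads, so no usable estimate was left. With every position counted the ratio was 0.12 and was not called.

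The smallest called ratios were close to equal counts. GB49775 (Group2.18, bases 412447 to 417672), the falling member tested, had D shares of 52.1% ± 2.51 in active bees (SD, n = 12) and 51.1% ± 2.99 in inactive bees (SD, n = 13), a log2 ratio of 0.10 (SE 0.04, edgeR adjusted p = 0.0347). GB43403 (Group6.31, bases 220954 to 226892) had 54.0% ± 7.07 in active bees (SD, n = 12) and 55.0% ± 9.75 in inactive bees (SD, n = 13), a ratio of 0.27 (SE 0.11, edgeR adjusted p = 0.0422). With equal D and Q totals both turned to the other side, GB49775 with -0.20 and GB43403 with -0.0147, so no direction can be given for either. The adjusted p over the alternatives ran from 0.00106 to 0.141 for GB49775 and from 0.00013 to 0.932 for GB43403.

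The parental ratio was not called different between active and inactive ovaries of crosses 882 and 888 for any tested member. By edgeR 0 of 24 passed, where 12 of 1190 genes (1.01%) did. An unadjusted p under 0.05 by edgeR was found for 3 of the 24, against 130 of 1190 genes. By limma 0 members passed. Among the 22 rising members with an estimate, the log2 ratio was higher with active ovaries for 13 and lower for 9. GB53323 (Group9.12, bases 1029413 to 1064021) had D shares of 50.3% with active and 39.8% with inactive ovaries in cross 888, and 52.3% with active and 42.5% with inactive ovaries in cross 882. The difference of its log2 ratio was 0.63 (SE 0.25, edgeR adjusted p = 0.301), and with 1 position per gene it was -0.18. GB54802 (Group8.12, bases 107689 to 114136) had 46.7% with active and 46.8% with inactive ovaries in cross 888, and 84.2% with active and 57.5% with inactive ovaries in cross 882 (difference 1.004, SE 0.46, edgeR adjusted p = 0.432).

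In the other direction the nearest members rested on few reads. GB52422 (Group2.17, base 801768), counted at 1 position with 378 reads in all, had D shares of 66.7% with active and 100% with inactive ovaries in cross 888. In cross 882 it had 51.4% with active and 54.6% with inactive ovaries (difference -2.45, SE 0.79, edgeR unadjusted p = 0.00727, adjusted p = 0.209). The inactive bees of cross 888 gave 1, 8 and 2 reads of it. GB47239 (Group11.16, base 737318) had a difference of -2.10 (SE 1.32, edgeR adjusted p = 0.625) from 314 reads in all, and the inactive bees of cross 888 gave 2, 5 and 1 reads.

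**Figure D5:**
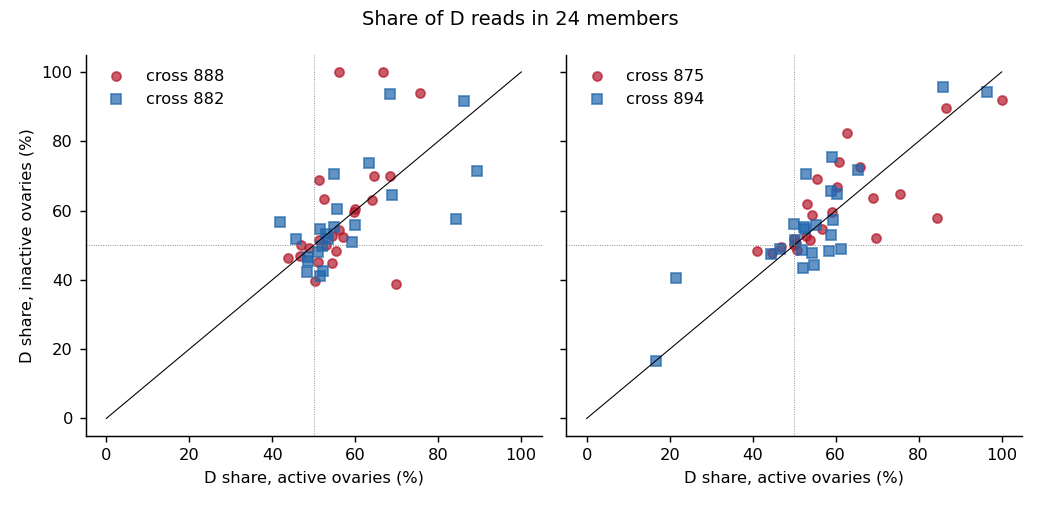
Share of D reads of the 24 tested members with active (x axis) and inactive (y axis) ovaries, in crosses 888 and 882 (left) and 875 and 894 (right). Each point is a member in a cross, with reads summed over the bees of the group. The diagonal marks equal shares in both statuses and the dotted lines 50%, and most points lie near the diagonal between 40% and 75%.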

How the data were processed

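RNA-seq libraries of 25 bees were compared. The gene table holds raw read counts for 15314 identifiers, as deposited by the authors, and the allele tables hold raw D and Q counts per position, as deposited. Per the submitters' processing notes, TopHat and edgeR were among the authors' tools, with no version stated. The sources used here do not give the build, the annotation, the read counter, the strand mode or how a read became D or Q. Whether antisense reads were counted is therefore unknown.

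CPM were counts divided by the library total times 1000000, and a pseudocount of 1 was added before log2. The members, the comparisons and the rules for naming genes were chosen with earlier results of these data known. Named were the 2 members in each direction with the largest smaller difference of crosses 882 and 888, the 2 called members with the largest difference in each comparison of level and direction (or the smallest p where none was called), the 2 largest and 2 smallest called parental ratios with at least 500 reads, and the 2 smallest p in each direction of the ratio by status.

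The level tests used R 4.3.3 and edgeR 4.0.16 (TMM, filterByExpr, robust quasi-likelihood F test, 8 groups of cross and status in 1 fit), with Benjamini-Hochberg adjustment over all genes tested and calls at 0.05. Standard errors are the absolute log2 difference over the square root of F. D and Q counts were summed per gene over positions in both tables that separated the parents in a cross. Such a position had 10 or more reads in 2 or more libraries of the cross, and its sum of squared D minus Q over D plus Q lay above the 0.01 quantile of chi-square. This keeps unequal positions and so favours larger ratios in either direction. Reads that span several positions enter the sum more than once. A gene entered the test with 10 or more reads in 2 or more libraries of every cross, with a block for each bee. Alternatives used limma 3.58.1 and DESeq2 1.42.0. Other steps used Python 3.11.15 with pandas 2.3.3 and numpy 2.4.6. The tests were also run on simulated counts with known changes. Nothing in the labels says that the bees of a group came from separate colonies, so p-values measure the spread between these bees.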

Additional observations from a re-analysis of the deposited data

Results flagged for a closer look

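The inactive bees of cross 882 were the only group of more than 3. A bee far from the other 3 was found in 4 of 31 sets of values tested. For 1 set alone, chance gives about 1 in 20. The 31 sets came from the same 4 bees and are not independent, so their number is not set against that rate. GB45771 had 4.08 CPM in replicate 3, against 1.54 to 1.69 CPM in the others. GB40567 had 16.8 CPM in replicate 4 (534 counts), against 14.89 to 14.95 CPM in the others (231, 239 and 359 counts). This gap was small and stood out because the other 3 lay close together. Counting error was not set against it. GB43403 had 20.6 CPM in replicate 1, against 13.6 to 14.7 CPM. The D share of GB53323 was 26.1% in replicate 3, against 44.8% to 45.7%, from 92 reads in that library. Replicate 3 is 1 of the 3 libraries that stood apart in the allele counts. All 4 gaps exceeded Dixon's 95% critical value for 4 bees.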

How the results depend on the processing

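The number of members was 133 with TMM-scaled sizes, 213 with a pseudocount of 5, 211 with a floor of 20 CPM, and 137 to 493 when each bee was left out in turn (137 without 875 inactive replicate 3, 191 without 894 inactive replicate 1). The rising median moved to 1.29 in cross 888 and 0.78 in cross 882 with TMM, by the median of all genes, and to 1.34 in cross 888 without the 3 libraries. Leaving out 1 bee gave -0.17 to 0.44 for rising and -0.68 to 0.51 for falling members in cross 875 (-0.68 without 875 active replicate 2).

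For crosses 882 and 888 over 875 and 894, members called higher numbered 1 with RLE scaling, 1 with equal weights of status, 2 with DESeq2 (1 lower), and 0 to 1 without 1 bee. For 888 over 882 they numbered 14 with equal weights, 23 with limma-voom, 77 with DESeq2, 153 without the 3 libraries, 8 without them at equal weights, and 2 to 123 without 1 bee. That range came from changed weights as well as fewer bees: 2 to 4 without an active bee of 888, 81 to 123 without an inactive bee of 888, 7 to 14 without an inactive bee of 882, 92 without 882 active replicate 1 and 65 without 875 active replicate 2. The calls over all genes, in either direction, also moved widely without 1 bee. They ran from 134 to 1373 for 888 over 882 and from 320 to 1083 for 875 over 894. For crosses 882 and 888 over 875 and 894 they ran from 3 to 26. In that comparison, 0.0786% of all genes were called higher with RLE scaling and 0.0715% with equal weights. With DESeq2, 0.472% of all genes were called higher and 0.243% lower in that comparison. For 875 over 894, 24 members were higher with DESeq2 and 1 lower with limma-voom. Without 1 bee, 1 to 26 were higher and 0 to 2 lower (26 without 875 active replicate 2, 6 without 875 active replicate 1, 1 without 894 inactive replicate 2, 3 without 894 active replicate 2, 6 without 894 active replicate 3).

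With every position, the parental ratio was called higher for D in 25 of 85 members tested (29.4%), against 31.2% of all genes. It was called lower in 2 (2.35%), against 4.05%. With positions above the chi-square median it was called higher in 7 of 15 members (46.7%), against 57.2% of all genes. With D and Q totals set equal it was called higher in 7 (29.2%) and lower in 3 (12.5%), against 25.5% and 21.1%. There was 1 lower without the 3 libraries and 1 with limma. With equal totals GB49775 was -0.20 and GB43403 was -0.0147, and GB53323 by status was -0.18 with 1 position per gene. Equal totals and the 3 left-out libraries at equal weights were chosen after the values were seen. The cause of these changes was not tested, except where the weights set them. No paired analysis was possible because replicate numbers follow the deposited order. Of the 24 members with parental counts, GB46091 had no reads in 1 group and gave no estimate.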
